A study of Mus musculus with 8 samples.

Results

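Circular RNAs (circRNAs) of mouse kidneys with unilateral ureteral obstruction (UUO), in which the ureter of one kidney is blocked and urine backs up into it, were compared with those of control kidneys. All libraries that the labels place in either group were used, 3 UUO and 3 control, which is 6 of the 8 libraries of the series, together with every circRNA the deposited tables list. The remaining 2 libraries form a group labelled acute-chronic (AC). They took no part in this fit, and their values are given beside it to show where the obstructed kidney changed with little or no change in AC. Every group had mice of the strain written C57BL/6L, aged 8 to 10 weeks, and total RNA from kidney. The titles give day 5 for UUO and AC, and they call the controls WT without a day. The design text speaks of kidneys taken at that time after ischaemia/reperfusion (I/R), after UUO and from sham-operated controls. That WT means sham-operated, or that AC means I/R, is not in the labels and was not assumed. Whether a library is 1 animal or a pool is not in the labels, nor that the libraries come from different animals. All p-values here are therefore about library-to-library spread, part or all of which can be technical.

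A circRNA forms when the end of an exon is joined back to the start of the same or an earlier exon, so that the RNA is a closed loop without free ends. Such loops resist exonucleases and are as a rule long-lived, and their level need not follow that of the linear transcript of the same host gene. Obstruction is a standard model of kidney fibrosis: tubules widen, tubular cells are injured or lost, and fibroblasts and leukocytes gather in the space between them. In RNA of a whole kidney, fewer cells of a type and less RNA per cell cannot be told apart. The linear transcripts of the host genes are not analysed here, so each statement below is about circRNAs and none is about the expression of a gene.

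The tables list 6315 circRNAs of 2841 host genes, and 32 circRNAs have no host. Total counts lay between 43971 and 65145 in the 6 libraries, with 3411 to 3811 circRNAs above 0 in each. The median circRNA had 11 counts over the 6 libraries together, and 3 counts were worth between 59.2 and 82.9 CPM, the usual depth-scaled count. CPM here are scaled to the counts left after the filter on low counts, with TMM factors, and a level is not comparable between circRNAs of unknown length. The first principal component, with 36.5% of the variance, placed the 3 controls at -9.81 or below and the 3 UUO libraries at 11.6 or above. Replicates differed by more than counting noise in every pair, with chi-square over degrees of freedom from 2.89 up to 5.65, so each library was counted once. Few cell type markers could be checked, because most have no listed circRNA: of 12 markers of the proximal tubule 2 had one (Lrp2 and Slc4a4), of 10 markers of fibroblasts and pericytes 2 (Fbn1 and Gli2, at 0 in all 3 controls and at 6 counts in UUO replicate 1 alone), and of the markers of lymphocytes and of urothelium 0. CircRNAs of podocyte markers (Magi2, Robo2) gave 172 to 442 CPM in controls and 156 to 421 CPM in UUO, and those of endothelial markers (Flt1, Ldb2, Tek) 221 to 387 CPM and 108 to 335 CPM. The check of the labelled tissue thus rests on circRNAs of a few tubular hosts (Lrp2, Slc4a4, Klhl3, Slc8a1 and, for the collecting duct, Atp6v0a4). Their sums for each tubule part were above 0 in every library, as were the podocyte and endothelial sums.

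Of the 1113 circRNAs with enough counts to be tested, 77 differed between UUO and control at an adjusted p below 0.05 by the quasi-likelihood test of edgeR, which is 6.92% of those tested. In UUO 49 of them (4.4% of those tested) were higher and 28 (2.52%) were lower, and 40 of the former and 22 of the latter changed at least 2-fold. They came from 67 host genes. The libraries of both groups did not overlap in any of the 77, and they did not overlap in 291 (26.1%) of all circRNAs tested. The median log2 fold change of all tested circRNAs was 0.0088. At an unadjusted p below 0.05 there were 204. DESeq2 called 75 and limma-voom 69, and 54 circRNAs were called by all 3 tools. When the authors' deposited constant served as library size, this median became -0.31, and the split turned to 9 higher and 30 lower among 39 calls, of which 36 were shared with the 77. No circRNA among the 77 changed direction under it, although Espl1 could not be tested with that scaling.

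**Figure D1:**
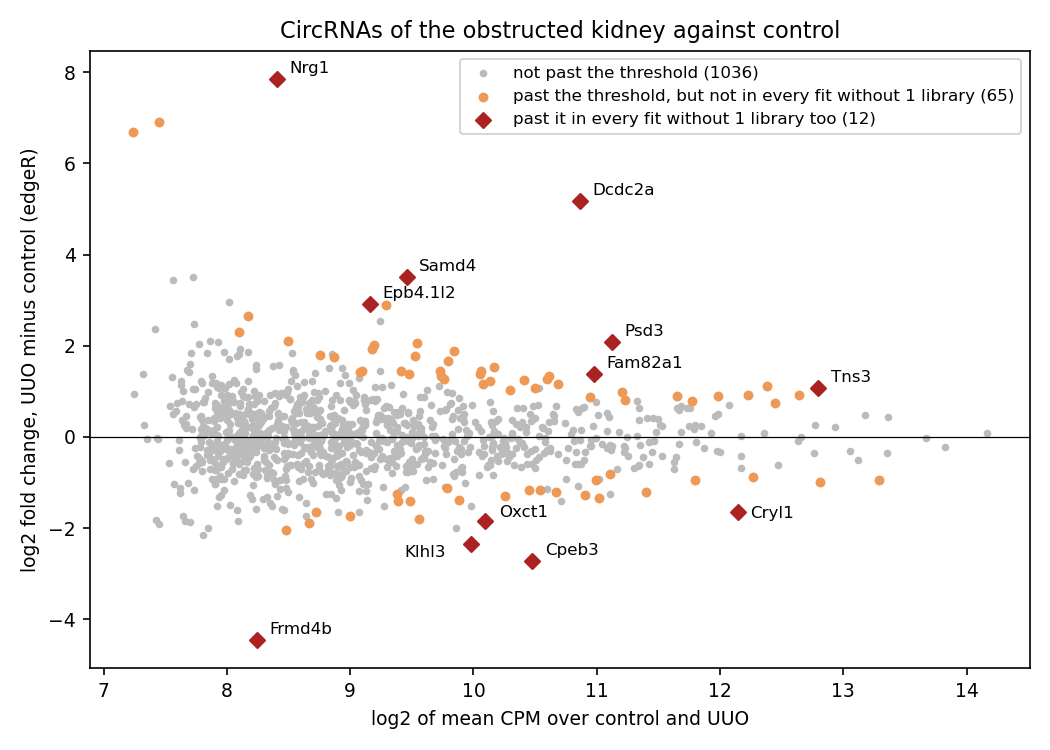
Each point is 1 of the 1113 tested circRNAs, placed by the log2 of its mean CPM over both groups (horizontal axis) and by its log2 fold change, UUO minus control, from edgeR (vertical axis). Orange points passed the threshold, and the 12 red diamonds, named by host gene, also passed it in every fit without 1 library. The 3 highest points (Nrg1 and 2 orange points, Osmr and Espl1) had no count in controls, so their fitted height depends on the prior count and is not a fold.

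Calls were more frequent among abundant circRNAs. Split by mean CPM into 4 bins of 278 or 279 circRNAs, the lowest bin held 4 calls (1.43%), the next 8 (2.88%) and 21 (7.55%), and the highest 44 (15.8%). The median standard error of the log2 fold change was 0.72 in the lowest bin and 0.28 in the highest. A change of a rare circRNA was therefore often not detectable at this depth.

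Leaving out 1 library at a time separated a small group of circRNAs from the rest. With the same 1113 circRNAs tested, 12 of the 77 passed in all 6 of these fits (1.08% of those tested), 7 of them higher and 5 lower in UUO. Another 63 passed in 1 to 5 of the fits, and 2 (Mbnl2 and Kif16b) in none. Without control replicate 1 or 2 the test made 87 and 84 calls, and it lost 13 and 12 of the 77. Without control replicate 3 it made 30 calls, and without UUO replicates 1, 2 and 3 it made 38, 19 and 21; it then lost 50, 40, 58 and 58 of the 77. The 6 that were lost in a single fit were Svep1, Psd3 (mmu_circ_0001682) and Arhgap10 (mmu_circ_0001692) without UUO replicate 2, and Vav3, Snx29 and Rftn1 (mmu_circ_0006808) without UUO replicate 3. Of the 12 kept by edgeR, 8 were also called by DESeq2 and by limma-voom with all 6 libraries and with each left out: Dcdc2a, Psd3 (mmu_circ_0001683), Fam82a1 and Tns3 higher, and Cryl1, Klhl3 (mmu_circ_0004688), Oxct1 (mmu_circ_0005660) and Cpeb3 lower. The other 4 (Nrg1, Samd4, Epb4.1l2 and Frmd4b) have few counts in 1 of the groups. With all 6 libraries DESeq2 called each of these 4 (adjusted p of at most 0.00188) and limma-voom called none. DESeq2 missed each in at least 1 fit without 1 library, where a fit that gave no adjusted p counts as a miss.

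The circRNA of Dcdc2a (mmu_circ_0004549), a doublecortin domain protein that binds microtubules and is found at the primary cilium, had the lowest p. It had 5, 4 and 4 counts in control replicates 1 to 3 and 125, 151 and 170 counts in UUO replicates 1 to 3. All controls lay near 0 and all UUO libraries were close together. Since this circRNA passed the filter on low counts through UUO alone, the gap is no separate support. Its level was 101 ± 32.3 CPM (SD, n = 3) in control and 3635 ± 231 CPM (SD, n = 3) in UUO, a 36.0-fold rise (log2 fold change 5.17 ± 0.32 SE, adjusted p = 8.88e-08), and it stayed between 32.0-fold and 42.7-fold higher with any library left out. The 2 AC libraries had 97 and 85 counts (log2 fold change against the same controls 4.62 ± 0.34 SE).

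Nrg1 encodes neuregulin, a ligand of the ErbB receptors. Its circRNA (mmu_circ_0014776) had 0 counts in each control and 23, 41 and 18 counts in UUO. AC was divided, with 24 counts in replicate 1 and 0 in replicate 2. With 0 in all controls, this circRNA passed the filter on low counts through UUO alone. The gap between the groups is therefore no separate support. Against a floor of 3 counts over the control group, UUO was at least 30.2-fold higher (adjusted p = 6.78e-04, edgeR), and at least 18.7-fold higher in the fit where the bound was lowest. Such bounds cover counting error alone. The adjusted p rose to 0.0416 without UUO replicate 2, and limma-voom did not call this circRNA (adjusted p = 0.164).

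Samd4 encodes the mouse form of Smaug, an RNA-binding repressor of translation. Its circRNA (mmu_circ_0000529) had 2, 6 and 7 counts in control and 51, 45 and 63 in UUO. The lowest UUO library lay well above the highest control. This gap is no separate support, because the circRNA passed the filter on low counts through UUO alone. The rise was 11.4-fold (log2 fold change 3.51 ± 0.42 SE, adjusted p = 1.86e-04), between 9.52-fold and 13.9-fold with any library left out, and AC had 41 and 39 counts. In limma-voom its adjusted p was 0.0735.

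Epb4.1l2 encodes a protein 4.1 of the membrane skeleton, which ties spectrin and actin to the membrane. Its circRNA (mmu_circ_0002128) had 1, 7 and 10 counts in control and 38, 35 and 52 in UUO. Groups were apart, with control replicate 1 lowest. Here too the filter on low counts was passed through UUO alone, so the gap is no separate support. The rise was 7.55-fold (log2 fold change 2.92 ± 0.49 SE, adjusted p = 0.00361), and its range with a library left out was wide, 5.72-fold to 11.05-fold, with adjusted p up to 0.0381. AC stood between the groups with 12 and 15 counts (log2 fold change 1.48 ± 0.59 SE), and the direct difference between UUO and AC was 1.42 ± 0.53 SE on the log2 scale (adjusted p = 0.816). Limma-voom gave an adjusted p of 0.143.

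Psd3 encodes an exchange factor that activates Arf6, a small GTPase of endosomal traffic. Its circRNA mmu_circ_0001683 had 34, 46 and 33 counts in control and 137, 148 and 156 in UUO. Within each group the libraries were nearly level, at 853 ± 125 CPM (SD, n = 3) and 3613 ± 114 CPM (SD, n = 3). The rise was 4.24-fold (log2 fold change 2.08 ± 0.23 SE, adjusted p = 1.34e-04) and between 3.90-fold and 4.45-fold with any library left out. The AC libraries had 83 and 90 counts (log2 fold change 1.48 ± 0.26 SE).

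The circRNAs of Fam82a1 and of Tns3, which encodes the focal adhesion protein tensin 3, rose by smaller steps. Fam82a1 (mmu_circ_0007033) had 42, 64 and 44 counts in control and 93, 116 and 150 in UUO. That is 2.59-fold higher (log2 fold change 1.37 ± 0.24 SE, adjusted p = 0.00520), and 2.37-fold to 2.76-fold with a library left out. Tns3 (mmu_circ_0000233), with many more counts, had 163, 275 and 179 in control and 319, 394 and 472 in UUO. It was 2.09-fold higher (log2 fold change 1.07 ± 0.19 SE, adjusted p = 0.00483), and 1.94-fold to 2.28-fold with a library left out. In both, control and UUO were apart, and both reached an adjusted p of 0.0481 without UUO replicate 3. With the deposited constant as library size, neither passed (adjusted p = 0.0848 for Fam82a1 and 0.190 for Tns3), while both stayed higher. In AC the counts were 49 and 72 for Fam82a1 (log2 fold change 0.58 ± 0.30 SE) and 310 and 294 for Tns3 (0.85 ± 0.20 SE). Of the 2 tested circRNAs of Tns3 only 1 was called. Their sum was 455, 788 and 582 counts in control and 649, 931 and 1101 in UUO. It was 1.56-fold higher (adjusted p = 0.00747, edgeR) and passed in 4 of the 6 fits without 1 library.

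Among the 5 kept decreases, 2 have hosts that encode enzymes of fuel and sugar metabolism. Cryl1 encodes a dehydrogenase of L-gulonate in the uronate pathway, and its circRNA (mmu_circ_0000543) had 216, 349 and 359 counts in control and 92, 74 and 102 in UUO. Every UUO library was below every control. The level fell 3.12-fold (-1.64 ± 0.20 SE on the log2 scale, adjusted p = 1.86e-04), and 2.89-fold to 3.34-fold lower with any library left out. Oxct1 encodes the transferase that lets mitochondria use ketone bodies, and its circRNA mmu_circ_0005660 had 55, 74 and 99 counts in control and 23, 23 and 11 in UUO. The level fell 3.59-fold (-1.84 ± 0.35 SE on the log2 scale, adjusted p = 0.00843), and 2.88-fold to 4.20-fold lower with a library left out, where the adjusted p came up to 0.0494 without control replicate 3. This circRNA did not pass in the fit of all 8 libraries (adjusted p = 0.147, edgeR) or with a replicate block (0.0553). AC counts were 44 and 40 for Cryl1 (log2 fold change -2.58 ± 0.26 SE) and 0 and 14 for Oxct1 (-3.08 ± 0.84 SE).

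Klhl3 encodes the adaptor by which a cullin ubiquitin ligase degrades WNK kinases, regulators of salt transport in the distal nephron. Its circRNA mmu_circ_0004688 had 54, 109 and 66 counts in control and 10, 18 and 12 in UUO. The UUO libraries were all under the lowest control. The level fell 5.13-fold (-2.36 ± 0.34 SE on the log2 scale, adjusted p = 7.47e-04), and 4.47-fold to 6.24-fold lower with any library left out, with 2 and 17 counts in AC. CircRNAs of the 2 distal markers that have any, Klhl3 itself and Slc8a1, summed to between 2688 and 3061 CPM in control and between 458 and 817 CPM in UUO. Klhl3 gave 77, 143 and 96 of the 98, 155 and 125 counts of this sum in control. In UUO it gave 14, 29 and 18 of 17, 33 and 23. The sum thus mostly repeats the Klhl3 counts and is no separate support, and the part of cell number in the fall was not tested. Cpeb3 encodes an RNA-binding protein that acts on translation through elements in the tails of mRNAs. Its circRNA mmu_circ_0007737 had 95, 108 and 124 counts in control and 21, 8 and 16 in UUO. The level fell 6.62-fold (-2.73 ± 0.34 SE on the log2 scale, adjusted p = 1.86e-04), and 5.38-fold to 8.76-fold lower with any library left out. AC had 6 and 0 counts of it (log2 fold change -4.90 ± 0.63 SE).

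Frmd4b encodes a scaffold protein with a FERM domain. Its circRNA (mmu_circ_0013632) had 11, 45 and 26 counts in control, 0, 0 and 3 in UUO, and 23 and 11 in AC. UUO was thus almost empty of it while both AC libraries lay within the range of the controls. In the fit of 6 libraries it passed the filter on low counts through the controls alone. The gap between UUO and control is therefore no separate support. The ratio of control to UUO was 25.1, with a 95% interval of 8.28 to 124 that covers counting error only (adjusted p = 0.00979, edgeR). All 3 UUO counts were in replicate 3. The ratio was 16.8 without UUO replicate 2 and 29.8 without control replicate 1, and without UUO replicate 3 UUO was at least 15.9-fold lower against the floor of 3 counts. In the fits without 1 library the adjusted p reached 0.0425, without control replicate 3, and limma-voom did not call it (adjusted p = 0.314).

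**Figure D2:**
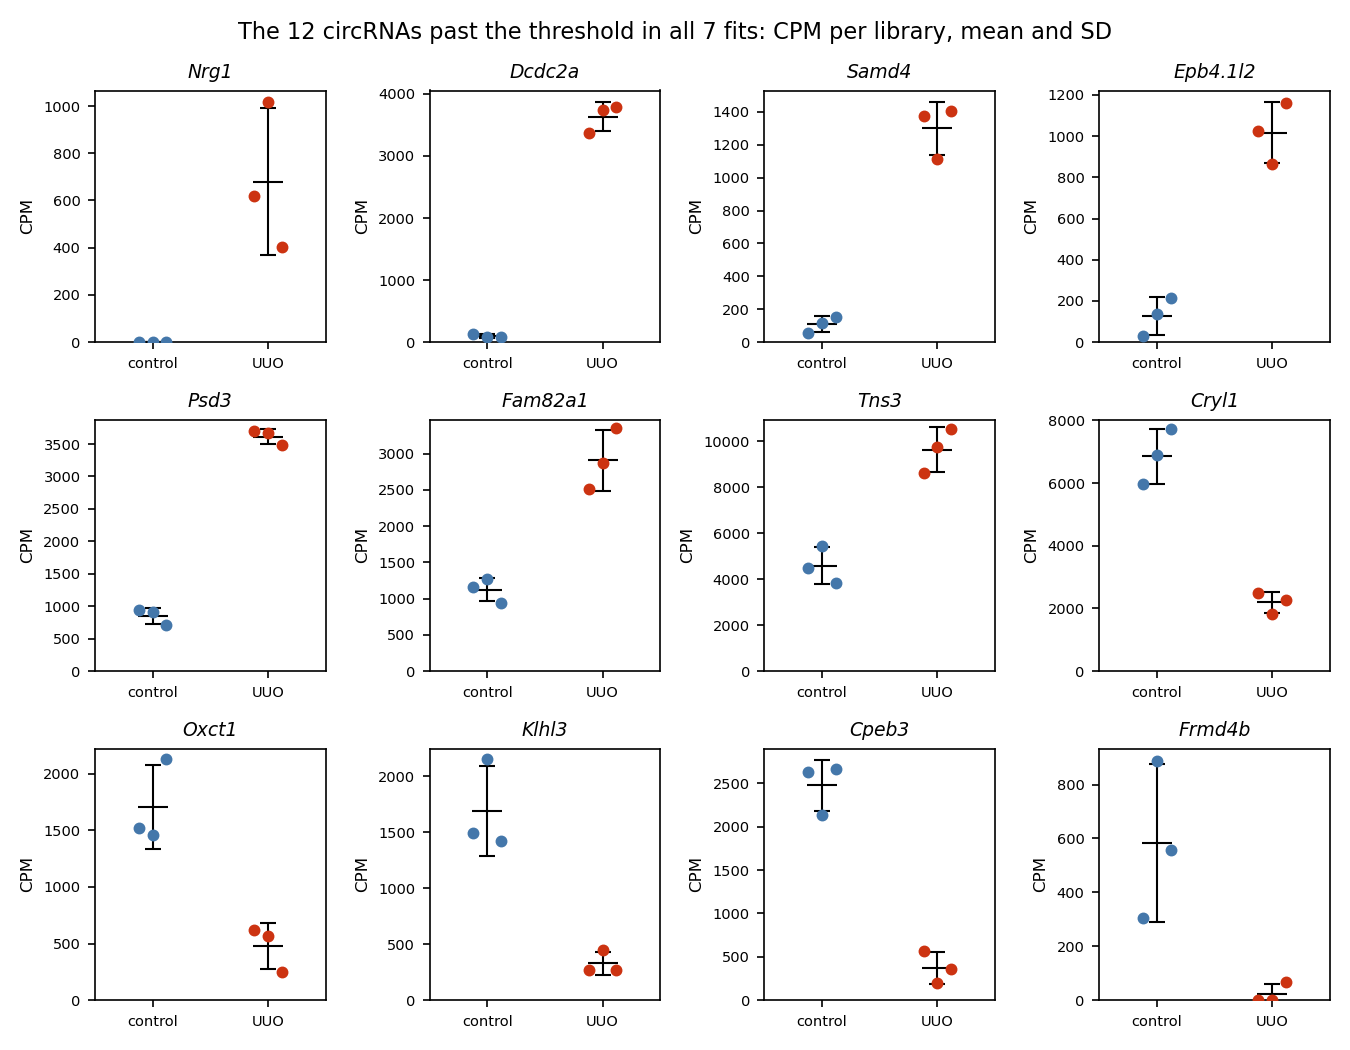
CPM per library (vertical axis, starting at 0) for the 12 circRNAs that passed the threshold with all 6 libraries and with each left out, named by host gene. Blue points are the 3 control libraries, red points the 3 UUO libraries, and bars give the mean and SD. In all 12 panels the red and blue points do not overlap, and the 3 controls of Nrg1 and 2 of the UUO libraries of Frmd4b are at 0.

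Other circRNAs with large changes rested on more fragile calls. That of Osmr (mmu_circ_0005739), the oncostatin M receptor, had 0 counts in each control and 13, 12 and 18 in UUO, at least 15.5-fold higher against the floor of 3 counts and at least 9.64-fold with any library left out (adjusted p = 0.0244, edgeR). That of Espl1 (mmu_circ_0000652), which encodes separase, the protease that frees sister chromatids, had 0 in each control and 9, 16 and 12 in UUO, at least 13.4-fold higher and at least 8.33-fold with any library left out (adjusted p = 0.0433). With 0 in all controls, both passed the filter on low counts through UUO alone, so the gap between the groups is no separate support. Both calls were lost without any 1 of the 3 UUO libraries, with adjusted p between 0.0949 and 0.143 for Osmr and between 0.114 and 0.190 for Espl1, and Espl1 was lost without control replicate 3 too (adjusted p = 0.0829). AC had 11 and 7 counts of Osmr and 13 and 9 of Espl1.

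The circRNA of Sh2d4b (mmu_circ_0005234), an adaptor with an SH2 domain, had 3, 12 and 5 counts in control and 50, 16 and 71 in UUO. UUO replicate 2 was the lowest of its group and still above every control. It was 7.43-fold higher (log2 fold change 2.89 ± 0.57 SE, adjusted p = 0.0104), and was lost without control replicate 3 (adjusted p = 0.0732) or UUO replicate 3 (0.0680). The circRNA of Aff3 (mmu_circ_0008717) had 5, 3 and 2 counts in control and 13, 17 and 32 in UUO, 6.24-fold higher (log2 fold change 2.64 ± 0.65 SE, adjusted p = 0.0251). It was lost without control replicate 3 (adjusted p = 0.0896), UUO replicate 2 (0.0949) or UUO replicate 3 (0.285). The circRNAs of Sh2d4b and Aff3 passed the filter on low counts through UUO alone, so their gaps are no separate support. Among the decreases, Slc16a7 (mmu_circ_0002039), a monocarboxylate transporter, had 10, 53 and 19 counts in control and 5, 5 and 7 in UUO (4.15-fold lower, adjusted p = 0.0449). The call passed in a single fit, without control replicate 1, and without control replicate 2 the fold was 2.48 and the adjusted p 0.406. Ccdc141 (mmu_circ_0010194) had 37, 48 and 72 counts in control and 13, 10 and 18 in UUO (3.49-fold lower, adjusted p = 0.0104), and was lost without control replicate 3 (0.0732) or UUO replicate 2 (0.0570). Ndel1 (mmu_circ_0003258), which encodes a partner of dynein, had 40, 23 and 37 counts against 12, 10 and 6 (3.32-fold lower, adjusted p = 0.0368), and it passed in a single fit, the one without control replicate 2.

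Of the 77 calls, 5 (6.49%) had an absolute log2 fold change of AC against control of at most 0.5, taken from a fit of all 8 libraries: Fli1, Svep1 and Nfix, higher in UUO, and Zfp827 and Frmd4b, lower. Among all 1107 circRNAs tested in both fits 546 (49.3%) were within this limit, but the 77 were chosen for their distance from the same 3 controls, so nothing is read from the difference. AC has 2 libraries, so a small AC change is an estimate with its own error and not a proof of none. In that fit 48 of 1471 circRNAs differed between AC and control, 3.26% of those tested.

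Svep1 encodes a large protein of the extracellular matrix. Its circRNA (mmu_circ_0011707) was at 372, 434 and 414 CPM in control, 964, 1635 and 1218 CPM in UUO, and 212 and 817 CPM in AC. UUO lay above every control and above both AC libraries, and AC lay on both sides of the controls. The log2 fold change was 1.66 ± 0.33 SE in UUO (adjusted p = 0.00953) and 0.30 ± 0.49 SE in AC. The UUO call was lost without UUO replicate 2 (adjusted p = 0.0766) and held in the other 5 fits. Fli1, an ETS transcription factor of endothelial and blood cells, had a circRNA (mmu_circ_0015526) with 4, 6 and 2 counts in control, 14, 23 and 19 in UUO, and 0 and 6 in AC. It changed by 2.30 ± 0.63 SE on the log2 scale in UUO (adjusted p = 0.0385) and by -0.06 ± 1.04 SE in AC, and its call was lost without control replicate 3 (0.108) or any UUO library (0.0995, 0.267 and 0.161). In CPM the AC libraries, at 0 and 175, lay below and above all controls (41.4 to 113). The small AC change of Fli1 is thus an average of unlike values. In the fit of 6 libraries its circRNA passed the filter on low counts through UUO alone. The gap between UUO and control is therefore no separate support. CircRNAs of 3 endothelial markers summed to 221 to 387 CPM in control and 108 to 335 CPM in UUO, and their part in the Fli1 result was not tested.

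Nfix encodes a transcription factor of the nuclear factor I family. Its circRNA (mmu_circ_0001704) was at 4919, 3944 and 3866 CPM in control, 6471, 9878 and 7160 CPM in UUO, and 6078 and 5513 CPM in AC. AC lay between the groups here, above every control and below every UUO library. The log2 fold change was 0.91 ± 0.20 SE in UUO (adjusted p = 0.0184) and 0.45 ± 0.22 SE in AC. The call was lost without control replicate 3 (0.0829), UUO replicate 2 (0.114) or UUO replicate 3 (0.0680). The circRNA of the zinc finger gene Zfp827 (mmu_circ_0001697) was at 1569, 2850 and 2130 CPM in control, 837, 724 and 1218 CPM in UUO, and 1555 and 1604 CPM in AC. Its AC values stood at the lower edge of the controls. It changed by -1.21 ± 0.30 SE in UUO (adjusted p = 0.0252) and by -0.47 ± 0.32 SE in AC, and was lost without control replicate 3 (0.0852), UUO replicate 1 (0.105) or UUO replicate 2 (0.122). For Frmd4b, whose counts are given above, the log2 fold change in AC was -0.38 ± 0.67 SE.

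**Figure D3:**
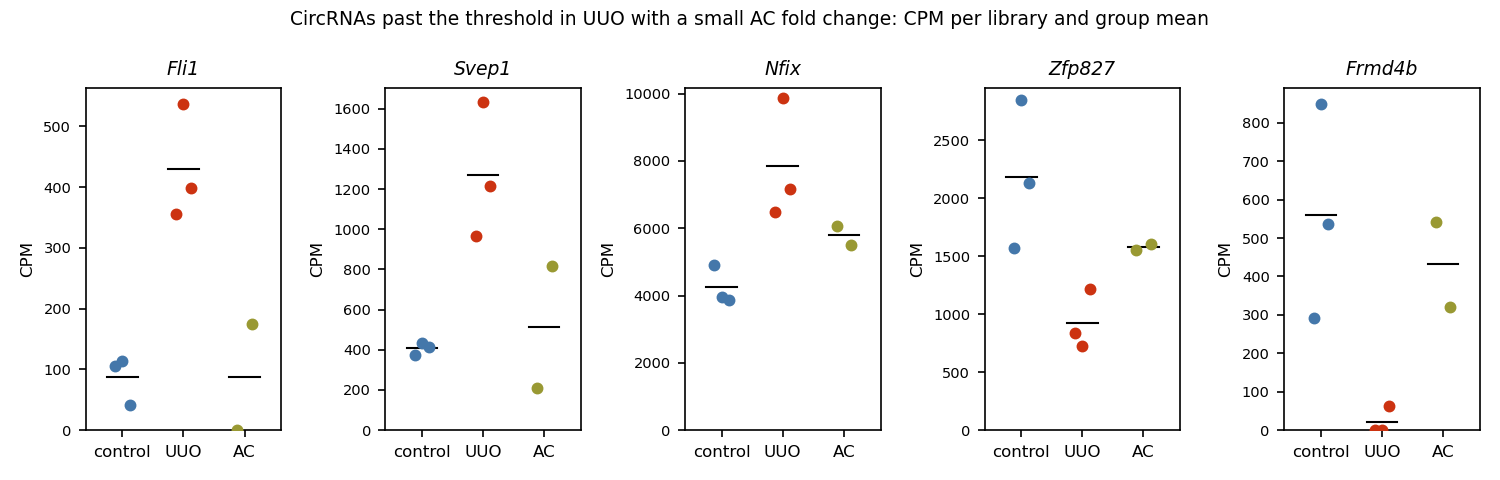
CPM per library (vertical axis, starting at 0) in all 8 libraries for the 5 circRNAs that passed the threshold in UUO with an absolute AC log2 fold change of at most 0.5, named by host gene. Blue, red and olive points are control, UUO and AC libraries, and black lines are group means. AC lies near the controls for Frmd4b, where the red points are at or near 0, and between the groups for Nfix.

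The difference between UUO and AC was tested directly in the fit of all 8 libraries, and edgeR called 0 of 1471 circRNAs (0%), with 83 at an unadjusted p below 0.05. DESeq2 called 2 (Spast and Frmd4b) and limma-voom 0. Without a filter on low counts edgeR called 3 (Dennd1b, Spast and Frmd4b), and in the UUO and AC libraries alone 2 (Dennd1b and Phf21a). Of the 5 circRNAs above, Frmd4b thus passed in some settings and not in others: its adjusted p was 0.0932 in edgeR with the filter, 0.00280 without it, 0.340 in UUO and AC alone and 0.0383 in DESeq2, with UUO at 0, 0 and 3 counts. The other 4 had adjusted p of 0.816 or 0.851 in edgeR. The lowest p belonged to Spast (mmu_circ_0006994), which encodes the microtubule-severing enzyme spastin. It had 4, 27 and 10 counts in control, 0 in all 3 UUO libraries, and 21 and 14 in AC (adjusted p = 0.0624 in edgeR with the filter, 7.90e-04 without it and 0.00338 in DESeq2). It was removed by the filter on low counts in the fit of 6 libraries. Without a filter it passed there (adjusted p = 0.00432). Dennd1b (mmu_circ_0008223), which encodes an activator of Rab35, went the other way: it had 0 counts in all 6 control and UUO libraries and 35 and 19 in AC. Its adjusted p was 0.0932 in edgeR with the filter, 8.40e-04 without it, 4.05e-04 in UUO and AC alone and 0.857 in DESeq2. Spast, Dennd1b and Phf21a were singled out after their values were seen.

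Counts were also summed over all circRNAs of a host gene, which adds the circRNAs that are too rare to be tested alone. Of 964 hosts, 88 differed between UUO and control (9.13%), 52 higher (5.39%) and 36 lower (3.73%). With the deposited constant as library size the split turned to 19 higher and 45 lower. Of the 88, 27 passed in all 6 fits without 1 library (2.8% of those tested). There were 24 called hosts without a called circRNA. Among these, Kcnt2 and Ccdc148 had no circRNA that could be tested alone.

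Kcnt2 encodes a potassium channel opened by sodium. Its 6 listed circRNAs together had 2, 0 and 6 counts in control and 22, 36 and 44 in UUO. The groups were apart, and AC was divided at 2 and 23 counts. The sum passed the filter on low counts through UUO alone, so the gap is no separate support. The sum was 12.7-fold higher (log2 fold change 3.67 ± 0.66 SE, adjusted p = 0.00194), and it passed with every library left out, with an adjusted p of at most 0.0164. Clasp2, which encodes a protein of growing microtubule ends, had 4, 4 and 4 counts over its 5 circRNAs in control and 39, 23 and 18 in UUO (7.02-fold higher, adjusted p = 0.00516). It was lost without UUO replicate 1 (adjusted p = 0.0749). The Clasp2 sum, too, passed the filter on low counts through UUO alone.

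The largest called decreases of a host sum were those of Frmd4b, Gyk, Klhl3, Cpeb3 and Slc16a7. Gyk encodes glycerol kinase, which brings glycerol into sugar and fat metabolism, and none of its circRNAs was called alone. Its 2 circRNAs summed to 81, 88 and 75 counts in control and 19, 25 and 3 in UUO. The highest UUO library was far below the lowest control. The sum fell 4.82-fold (-2.27 ± 0.48 SE on the log2 scale, adjusted p = 0.00784) and passed with every library left out, with an adjusted p of at most 0.0477. Smarca2, an ATPase of the BAF chromatin remodelling complex, summed to 60, 137 and 74 counts over 7 circRNAs in control and 35, 26 and 37 in UUO. That was a 2.53-fold fall (-1.34 ± 0.30 SE on the log2 scale, adjusted p = 0.00711), and it also passed with every library left out, at 0.0489 or less. Cpeb3 summed to 126, 171 and 161 counts against 40, 22 and 29 over 8 circRNAs (4.68-fold lower, adjusted p = 3.45e-05). Clasp2 and Smarca2 were picked after their values were seen.

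Where more than 1 circRNA of a host was called, the calls had 1 direction. There were 7 such hosts: Psd3, Glis3 and Rftn1 with higher and Arhgap10, Bckdhb, Klhl3 and Oxct1 with lower circRNAs in UUO. CircRNAs of 1 host share their gene and may share reads, so they are not independent. For Arhgap10, which encodes a GTPase-activating protein, 3 of 7 tested circRNAs were called, and they fell by 0.95, 0.95 and 0.94 on the log2 scale. The most abundant of them (mmu_circ_0001692) had 422, 630 and 717 counts in control and 281, 253 and 299 in UUO, and was lost without UUO replicate 2 (adjusted p = 0.0561). The other called ones (mmu_circ_0001691 and mmu_circ_0014982) passed in 2 and 1 of the 6 fits without 1 library. The log2 fold changes of the 4 that were not called lay between -1.85 and -0.14. Glis3, a transcription factor linked to cystic kidney disease, was less uniform. Its most abundant circRNA (mmu_circ_0000942) had 150, 274 and 193 counts in control and 149, 177 and 247 in UUO, with overlapping groups and a log2 fold change of 0.02 ± 0.20 SE. The next (mmu_circ_0000943) had 107, 119 and 147 counts in control and 216, 194 and 232 in UUO, with groups apart and a log2 change by 0.90 ± 0.20 SE (adjusted p = 0.0185). That call was lost without any UUO library, where its adjusted p was at most 0.0869.

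Bckdhb encodes a subunit of the dehydrogenase that breaks down branched-chain amino acids. Its circRNAs mmu_circ_0001822 and mmu_circ_0015952 fell by 0.88 and 1.39 on the log2 scale (adjusted p = 0.0244 for both), and both calls were lost without control replicate 3, UUO replicate 2 or UUO replicate 3, with adjusted p of at most 0.128. The second circRNA of Klhl3 (mmu_circ_0004687) had 22, 34 and 30 counts in control and 4, 11 and 6 in UUO (3.70-fold lower, adjusted p = 0.0275), and was lost without control replicate 3 (0.0936), UUO replicate 1 (0.108) or UUO replicate 3 (0.121). The second of Oxct1 (mmu_circ_0000571) had 112, 125 and 156 counts against 55, 23 and 65 (2.54-fold lower, adjusted p = 0.0244), and was lost without control replicate 3, UUO replicate 2 or UUO replicate 3, with adjusted p of at most 0.0942. Rftn1 encodes raftlin, a protein of membrane rafts, and its circRNAs mmu_circ_0006808 and mmu_circ_0006809 rose 4.18-fold and 2.62-fold. The former was lost without UUO replicate 3 (adjusted p = 0.0560), and the latter passed in a single fit, without control replicate 2.

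**Figure D4:**
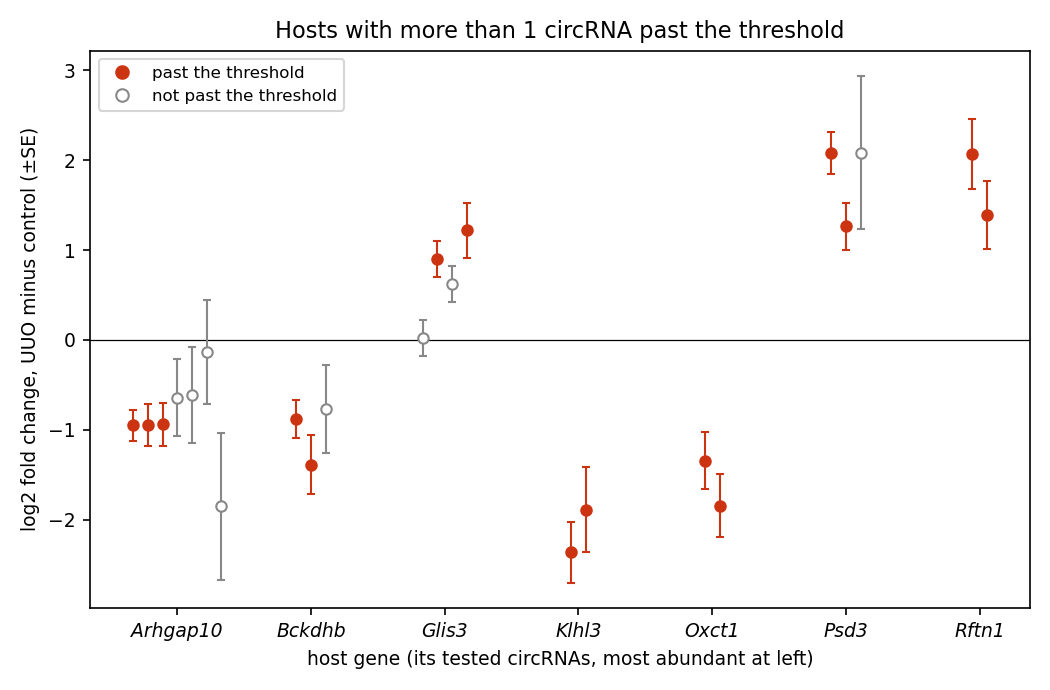
Log2 fold change, UUO minus control, with its standard error (vertical axis) for each tested circRNA of the 7 hosts with more than 1 called circRNA (horizontal axis, most abundant at the left within a host). Filled red points passed the threshold and open grey points did not. The members of each host lie on 1 side of 0, with the most abundant circRNA of Glis3 at 0.02.

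Whether single circRNAs changed their share within a host was tested for 493 circRNAs of 196 hosts with at least 2 tested members. The test (diffSpliceDGE of edgeR) called 0 (0%), with 9 at an unadjusted p below 0.05. Members of 93 of the 196 hosts lay on both sides of 0. The lowest p was that of an Apbb2 circRNA (mmu_circ_0012733, adjusted p = 0.0860), which had 11, 14 and 14 counts in control and 26, 35 and 36 in UUO. Its own level was higher in UUO (log2 fold change 1.42 ± 0.37 SE, adjusted p = 0.0307), and that call passed in a single fit, without control replicate 1. Another circRNA of Apbb2 (mmu_circ_0001351) pointed down, at -1.07 ± 0.33 SE (adjusted p = 0.0781). Apbb2 was singled out after its values were seen.

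The tested circRNAs were also described by 20 lists of host genes, which share some members and were compiled with earlier results of these data known. They are counts and medians to set beside those of all tested circRNAs (6.92% called, median log2 fold change 0.0088) and no test was made of a list. Lists of tubular transport and fuel use had 5 of the 6 lowest medians, and the inflammation list had the other. Of 3 tested circRNAs of proximal tubule uptake and transport, 1 was lower and 2 did not pass (median log2 fold change -0.94). Of 9 of the thick limb, distal nephron and collecting duct 2 were lower (-0.60), of 3 of fatty acid oxidation and peroxisome 2 (-1.34), of 4 of the citric acid cycle, pyruvate and respiratory chain 1 (-0.80), and of 8 of amino acid, NAD and one-carbon metabolism 2 (-0.68). Each pair of calls here came from 1 host gene, Klhl3, Oxct1 and Bckdhb respectively. Oxct1 serves the use of ketone bodies, so both calls of the fatty acid list, and its median, are those of a ketone body host. The third tested circRNA of that list, of Abcd3, was not called (log2 fold change -1.03 ± 0.52 SE, adjusted p = 0.314, edgeR). Scaled by the deposited constant, the same medians were -1.36, -0.86, -1.89, -1.13 and -1.04, beside a median of -0.31 for all. CircRNAs of the proximal tubule markers Lrp2 and Slc4a4 summed to between 1686 and 3594 CPM in control and between 1273 and 1753 CPM in UUO, and the part of cell number in these lists was not tested.

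Slc7a8 (mmu_circ_0000539), an amino acid transporter of the basolateral membrane, had 69, 97 and 110 counts in control and 31, 32 and 50 in UUO. The groups were apart, and it fell 2.25-fold (-1.17 ± 0.26 SE on the log2 scale, adjusted p = 0.0204). The call was lost without control replicate 3, UUO replicate 1 or UUO replicate 2, with adjusted p of at most 0.0949. Slc4a4 (mmu_circ_0012844), the bicarbonate cotransporter of the proximal tubule, had 33, 38 and 30 counts against 23, 15 and 21 (log2 fold change -0.66 ± 0.37 SE, adjusted p = 0.362). Lrp2 (mmu_circ_0010128), the endocytic receptor megalin, had 9, 92 and 47 counts in control and 27, 25 and 13 in UUO. Its controls spanned the whole range of UUO (log2 fold change -0.94 ± 0.63 SE, adjusted p = 0.481). Stk39 (mmu_circ_0001028), the kinase SPAK that WNK kinases activate, had 218, 375 and 332 counts in control and 155, 203 and 190 in UUO. Its groups were apart, but its log2 fold change of -0.61 ± 0.18 SE missed the threshold in edgeR (adjusted p = 0.0559) and passed it in DESeq2 (0.0147) and limma-voom (0.0374). The sum over all 9 circRNAs of Stk39 was lower in UUO (-0.56 ± 0.15 SE on the log2 scale, adjusted p = 0.0281), and that call held without control replicate 1 or 2 and was lost without control replicate 3 or any UUO library, with adjusted p of at most 0.177.

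Ogdh (mmu_circ_0000231), a dehydrogenase in the citric acid cycle, had 301, 618 and 378 counts in control and 174, 195 and 221 in UUO. The UUO libraries were nearly level at 4818 ± 122 CPM (SD, n = 3), against 9551 ± 2300 CPM (SD, n = 3) in control. The level fell 1.98-fold (-0.99 ± 0.19 SE on the log2 scale, adjusted p = 0.00953), and was lost without UUO replicate 2 or UUO replicate 3, with adjusted p of at most 0.0586. Smox (mmu_circ_0001068), the spermine oxidase, had 12, 27 and 6 counts in control and 55, 39 and 44 in UUO, 3.40-fold higher (adjusted p = 0.0275). It was lost without control replicate 3 or any UUO library, with adjusted p of at most 0.123. In its list of sugar, sulfate, polyamine and lipid enzymes 1 of 7 tested circRNAs was higher (Smox) and 1 lower (Cryl1), with a median of -0.40 and with 3 positive and 4 negative log2 fold changes.

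The highest median was that of hosts listed for proximal tubule cells in failed repair. All 7 tested circRNAs had a positive log2 fold change, also with the deposited constant, and 4 were called (median 1.26, and 0.97 with the constant). These were Dcdc2a, both called circRNAs of Psd3, and Nfkb1, all of which were known as calls when the list was compiled. Nfkb1 (mmu_circ_0010477), a subunit of the transcription factor NF-kappaB, had 24, 47 and 41 counts in control and 60, 68 and 79 in UUO (2.03-fold higher, adjusted p = 0.0324), and it passed in a single fit, the one without control replicate 2. In the list of inflammation, NF-kappaB, complement and leukocytes it was the 1 call of 5 tested circRNAs, and the other 4 had negative log2 fold changes (median -0.62). Among these, Mertk (mmu_circ_0009326), a receptor by which macrophages take up dying cells, had 53, 94 and 28 counts in control and 15, 31 and 34 in UUO, with overlapping groups (log2 fold change -1.01 ± 0.41 SE, adjusted p = 0.181).

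In the matrix and fibroblast list 1 of 3 tested circRNAs was higher (Svep1, median 0.88), and in the list of TGF-beta and BMP signalling 1 of 8 (median 0.52, and 0.09 with the constant). That 1 was Smad1 (mmu_circ_0001699), which carries BMP signals to the nucleus, with 31, 22 and 23 counts in control and 53, 76 and 58 in UUO (2.61-fold higher, adjusted p = 0.0244). The call was lost without control replicate 3 or any UUO library, with adjusted p of at most 0.109. Smad4 (mmu_circ_0007496), the partner shared by TGF-beta and BMP signals, had 4, 3 and 4 counts in control and 10, 20 and 13 in UUO. Its groups were apart, but it passed the filter on low counts through UUO alone and was not called (log2 fold change 2.03 ± 0.78 SE, adjusted p = 0.150). A more abundant circRNA of Smad4 (mmu_circ_0000894) had 74, 79 and 147 counts in control and 125, 104 and 128 in UUO. Its groups overlapped (log2 fold change 0.38 ± 0.26 SE, adjusted p = 0.481, edgeR). Of 27 circRNAs of growth factor and cytokine signalling the 2 calls were Nrg1 and Osmr, both higher, and of 14 of cell division and the p53 response they were Espl1 and Bub1b. Bub1b (mmu_circ_0001058), a kinase of the spindle checkpoint, had 11, 21 and 17 counts against 38, 45 and 39 (2.74-fold higher, adjusted p = 0.0244), and was lost without control replicate 3 or any UUO library, with adjusted p of at most 0.102.

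In the Hippo list the 2 calls of 16 were Ptpn14 (mmu_circ_0000130) and Amotl1 (mmu_circ_0001745), both of which encode proteins that hold back the coactivator Yap. Ptpn14 had 29, 32 and 16 counts in control and 44, 98 and 67 in UUO (2.89-fold higher, adjusted p = 0.0244). Amotl1 had 18, 29 and 21 counts against 37, 61 and 53 (2.41-fold higher, adjusted p = 0.0266). In both the groups were apart, and both were lost without control replicate 3, UUO replicate 2 or UUO replicate 3, with adjusted p of at most 0.134. Adhesion, junction and actin hosts moved in both directions: 5 of 42 tested circRNAs were higher (Epb4.1l2, Tns3, Cd2ap, Arhgap26 and Nedd9) and 4 lower (Frmd4b and 3 of Arhgap10), with a median of -0.02. Cd2ap (mmu_circ_0006764), a scaffold of the podocyte slit diaphragm and of other junctions, had 81, 232 and 149 counts in control and 328, 231 and 330 in UUO (2.18-fold higher, adjusted p = 0.0236). In CPM, which allow for library size, its groups did not overlap, and it was lost without control replicate 3, UUO replicate 1 or UUO replicate 3, with adjusted p of at most 0.0965.

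Of 59 circRNAs of chromatin regulators 1 was called (1.69%), Whsc1 (mmu_circ_0001335), a histone methyltransferase, with 61, 74 and 75 counts in control and 100, 133 and 154 in UUO (1.98-fold higher, adjusted p = 0.0191). It was lost without control replicate 3, UUO replicate 2 or UUO replicate 3, with adjusted p of at most 0.120. Of 59 circRNAs of endosome, Golgi and exocyst trafficking 2 were called (3.39%), both of Psd3. Of 37 circRNAs of RNA-binding, splicing and translation regulators 3 were called, Samd4 and Mbnl2 higher and Cpeb3 lower. Of 13 circRNAs of kidney and nuclear receptor transcription factors 3 were called, all higher (Nfix, Foxn2 and Elf2), while Thrb (mmu_circ_0000504), a thyroid hormone receptor, was at -1.25 ± 0.37 SE on the log2 scale and missed the threshold (adjusted p = 0.0791). Of 24 circRNAs of microtubules, centrosome and cilium 4 were called (Dcdc2a and 2 of Glis3 higher, Kif16b lower), and of 26 of ubiquitin ligases and deubiquitinases 3 (Fbxw7 higher, 2 of Klhl3 lower). The calls of Mbnl2 and Kif16b passed in no fit without 1 library. Those of Foxn2, Elf2 and Fbxw7 passed in 3, 1 and 3 of the 6 fits.

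**Figure D5:**
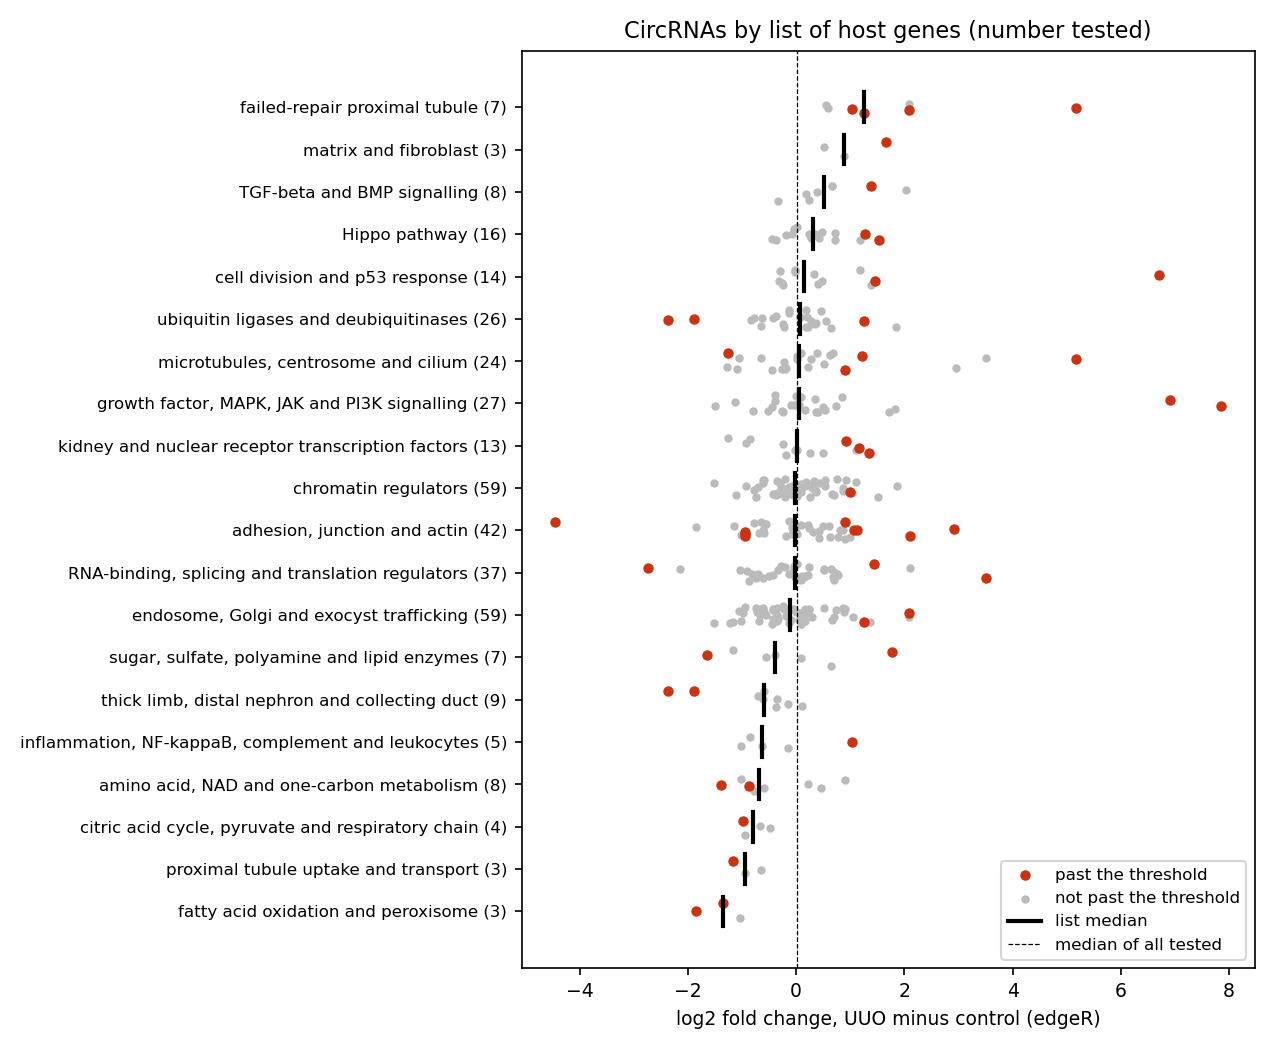
Log2 fold change, UUO minus control, from edgeR (horizontal axis) of every tested circRNA in each of 20 lists of host genes (vertical axis, number tested in parentheses), ordered by median. Red points passed the threshold, grey points did not, black bars are list medians and the dashed line is the median of all 1113. The failed-repair list is at the top with a median of 1.26. The fatty acid list is at the bottom with -1.34, which is the value of a circRNA of Oxct1, a host of ketone body use. Points beyond 6 had no control count, so their fitted value is not a fold.

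Some circRNAs were seen in every library of 1 of the control and UUO groups and in none of the other, and several of these had counts in AC. Of the 6315 listed circRNAs, 47 were at 0 in all 3 controls and above 0 in all 3 UUO libraries. Of these, 3 (Nrg1, Osmr and Espl1) had enough counts to be tested. Another 36 of the 6315 were at 0 in all 3 UUO libraries and above 0 in all 3 controls, of which 0 were tested. Both are small parts of those listed. Among the former, Rgnef (mmu_circ_0004932), which encodes a guanine nucleotide exchange factor, had 4, 16 and 4 counts in UUO, and Met (mmu_circ_0013213), the receptor of hepatocyte growth factor, had 4, 10 and 7. AC had 0 and 4 counts of Rgnef and 6 and 12 of Met. Among the latter, Spast had the most counts, and Mllt10 (mmu_circ_0000982), a partner of the histone methyltransferase Dot1l, had 4, 22 and 14 counts in control. Tc2n (mmu_circ_0003659) had 12, 7 and 6 counts in control and 0 and 1 in AC. A count of 0 in a library allows up to 3 counts, so most of these are near the limit of detection.

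The summed deposited signal, the counts of a library over the authors' constant, was 5.94 ± 1.41 (SD, n = 3) in control and 4.86 ± 0.228 (SD, n = 3) in UUO. Control replicate 2 was the highest at 7.47, and the lowest control (4.70) lay within the range of UUO (4.64 to 5.10). The difference was within the spread between replicates (two-sided exact permutation test, p = 0.3, while 3 libraries against 3 cannot give a p below 0.1).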

How the data were processed

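CircRNA counts of total RNA from 3 UUO, 3 control and 2 AC kidney libraries were analysed. The deposited table of counts holds whole numbers per circRNA without normalization. In the authors' deposited signal table each count is divided by 1 constant per library, of unstated meaning. HISAT2, StringTie and build mm9 were used, per the submitters' processing notes. Both the caller of circular junctions and its filters were not given in the sources used here. Neither positions nor sequences of the circRNAs were used here. Host symbols are those of the table, with 10 restored from their source transcripts (91.7% matched).

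Counts of the 6 UUO and control libraries were fitted with edgeR 4.0.16 in R 4.3.3: filterByExpr (minimum count 10, minimum total 15), TMM factors and the robust quasi-likelihood test. P-values were adjusted by Benjamini-Hochberg over all 1113 tested circRNAs (17.6% of those listed, with 78.5% to 80.1% of the counts of each library) and the threshold was 0.05. A fit of 3 groups over all 8 libraries gave the AC values and the direct UUO minus AC test, host sums were fitted like single circRNAs, and shares within a host by diffSpliceDGE. Intervals (exact binomial, 95%), the floor of 3 counts over a group and the limits of a 0 cover counting error only, since reads without molecular identifiers are not independent molecules. A bound against the floor leaves out the counting error of the group that has counts. Scripts were tested on simulated counts.

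The members, gene lists and tests were chosen with earlier results of these data known. Named were: circRNAs that passed in all 7 fits; the 8 largest called increases and decreases without overlap; up to 5 per direction with an absolute AC log2 fold change of at most 0.5; the 5 hosts of largest called change per direction; up to 6 called within hosts; up to 4 of lowest p per list; and any that passed in UUO against both groups. Other names were chosen after their values were seen. Alternatives were RLE factors, no factor, the deposited constant as library size, no filter, a minimum count of 20, each library left out, a replicate block, all 8 libraries in the fit, DESeq2 1.42.0 and limma-voom 3.58.1. The labels state no pairs, and same-numbered control and UUO libraries did not deviate together (r = -0.13, -0.09 and -0.04), so numbers were not used as pairs. Such few values cannot exclude a pairing. One result of the host sums is not reported here.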

Additional observations from a re-analysis of the deposited data

How the results depend on the processing

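Calls of single circRNAs numbered 77 and ranged from 19 to 87 with 1 library left out. The deposited constant as library size gave 39, and the other scalings, filters and tools stayed within 1.5 times of 77. The 88 host sums ranged from 39 to 107, and the constant gave 64. The labels do not say whether replicate numbers pair the samples. A fit with a replicate block, which uses up degrees of freedom, left 10 circRNAs and 38 host sums. The direct test of UUO against AC called 0, and 3 without a filter (Dennd1b, Spast and Frmd4b), 2 in UUO and AC libraries alone, 2 in DESeq2, and 0 to 2 with 1 library left out. Of calls that passed with every library left out there were 12 in edgeR, 24 in limma-voom and 24 in DESeq2, and 8 when the filter was applied anew to each set of 5 libraries, a setting added after seeing the data. Of 663 values of 45 called circRNAs under other settings 195 missed the threshold and 0 changed direction. Among 34 that were not called, Adam9 (mmu_circ_0001665, log2 fold change 0.51) ranged from -0.095, without UUO replicate 2, to 0.98 with 1 library left out. Of 180 list medians 40 moved, 18 of them with the deposited constant. Low counts limit most of the 6315 circRNAs; the cause of each lost call was not tested.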
